A study of Mus musculus with 6 samples.

Results

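The odorant receptor genes described here are the 201 Olfr and Taar genes that had at least 1 count in any of 6 single olfactory sensory neurons, once the 4 neighbouring genes Olfr740, Olfr741, Olfr742 and Olfr743 were set aside. They come from 1421 receptor genes in the table, 1405 named Olfr and 16 named Taar, so 201 of the 1417 genes outside the leading 4 were found (14.2%). Over all 55341 genes in the table, 29.8% had a count in any cell. The members were chosen by their counts in these same cells, so the number found is a description and no test was made of it. The values nearest the limit are 1 count, which 127 members had over all cells, and 0 counts, which the other 1216 receptor genes had.

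All 6 cells were olfactory sensory neurons from the olfactory epithelium of 6-week-old C57BL/6 mice, with no other treatment or genotype in the labels. Each was recorded from, frozen and sequenced as its own library by CEL-Seq2, a method that reads the 3' ends of polyadenylated RNA. The labels name no animals and place all cells in 1 group, so no difference between cells can be set against replicates and no p-value is given. The cells held 8613 to 122546 counts, and the neuron label fits their defining markers: all 9 mature neuron genes (Omp, Gnal, Gng13, Adcy3, Cnga2, Cnga4, Cngb1, Stoml3, Ano2) were found, with a summed level of 13399 to 27284 CPM (counts scaled to the same library total), although cell 6 had counts for 5 of them.

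Odorant receptors are G protein-coupled receptors in the cilia of olfactory neurons, and each mature neuron usually settles on 1 receptor gene and 1 of its alleles. Genes of class I lie in a cluster on chromosome 7 that surrounds the beta-globin genes, while class II genes fill many further clusters across the genome. Taar genes encode receptors for amines. They are counted here with the odorant receptors by name, with no claim that each acts in smell. Cells 1 and 2 were led by Olfr740, cells 3 and 4 by Olfr741 and the last pair, cells 5 and 6, by Olfr743. The genes described here are what was counted beside these.

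The receptors differ from each other even in a highly conserved part of the protein. The lines show this with the 30 coding bases around the Asp-Arg-Tyr motif after the third membrane helix, where the receptor couples to its G protein, for the 3 leading receptors and for 9 members that the results turn on. They were read from GENCODE M21 transcripts (GRCm38) from 5' to 3', with the 3 codons of the motif in capitals.
Olfr740: atggcatttGATCGATACcttgccatctgt
Olfr741: atggcatttGATCGATACcttgccatctgt
Olfr743: atggcatttGATCGATACcttgccatctgt
Olfr1372-ps1: atggctttcGACCGCTATgtcgctgtgtgt
Olfr1383: atggctttcGACCGCTATgtcgctgtgtgt
Olfr482: atggcttatGATCGCTTTgtagcaatctgc
Olfr729: atggcctatGATAGATATgtggccatatgc
Olfr981: atggcttatGACCGATTCttggccatctgc
Olfr281: atggcgtacGACCGCTACgcggctgtctgc
Olfr169: atgtcctatGATCGATATgtggccatctgc
Olfr285: atggcctatGACCGCTATgcagccatttgc
Olfr545: atggctctaGATCGCTATgtggctatctgc

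The 3 leading receptors were identical over these bases, and the 9 members differed from Olfr740 at 7 to 11 of the 30. Olfr981 and Olfr169 were nearest to it with 7 differences, and Olfr281 was farthest with 11. In Olfr482 and Olfr981 the last codon of the motif reads Phe in place of Tyr. Olfr1372-ps1 and Olfr1383 carried the same 30 bases.

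Low-level receptors were found in every cell, and cell 2 had the highest summed level. Cells 1 to 6 had counts for 12, 77, 81, 71, 22 and 8 members, which is 0.847%, 5.43%, 5.72%, 5.01%, 1.55% and 0.565% of the 1417 receptor genes. Over all genes the shares found were 5.53%, 14%, 21.1%, 17.3%, 11.5% and 5.16%. These members summed to 13 counts in cell 1, 126 in cell 2, 268 in cell 3, 140 in cell 4, 35 in cell 5 and 9 in cell 6.

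Scaled to depth, the sum was 3655 CPM in cell 2 (exact 95% Poisson interval 3044 to 4351), 2299 CPM in cell 4 (1934 to 2713) and 2187 CPM in cell 3 (1933 to 2465). It was 1554 CPM in cell 5 (1082 to 2161), 1509 CPM in cell 1 (804 to 2581) and 768 CPM in cell 6 (351 to 1457). The intervals cover counting error only and take every count as a separate molecule, which is not known here. If counts are reads, copies of a molecule would make all intervals given here too narrow. Cell 2 lay above cell 3 by a ratio of 1.67 (1.34 to 2.07) and above cell 4 by 1.59 (1.24 to 2.04), and it lay above cell 6 by 4.76 (2.43 to 10.7). Cells 3 and 4 did not differ beyond counting error, with a ratio of 1.05 (0.851 to 1.29), and neither did cells 5 and 1, with 1.03 (0.531 to 2.12).

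The level of cell 3 rests on a pair of similar genes, Olfr1372-ps1 and Olfr1383, which held 122 of its 268 counts and 3 of the 140 in cell 4. Without the pair, cell 3 had 1191 CPM (1006 to 1401) and cell 4 had 2250 CPM (1889 to 2659). Cell 4 then lay above cell 3 by a ratio of 1.89 (1.48 to 2.40), and cell 2 lay above cell 3 by 3.07 (2.40 to 3.92).

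At the depth of the shallowest cell, 8613 counts, 25.8 members would be expected in cell 2, 15.9 in cell 4, 12 in cell 1, 11.4 in cell 3, 10.7 in cell 5 and 6.07 in cell 6. Cell 3 had the most members as counted, and cell 2 the most at equal depth. All genes together followed another order at that depth, with 4015 in cell 4, 3870 in cell 3, 3769 in cell 5, 3441 in cell 2, 3058 in cell 1 and 2468 in cell 6.

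**Figure D1:**
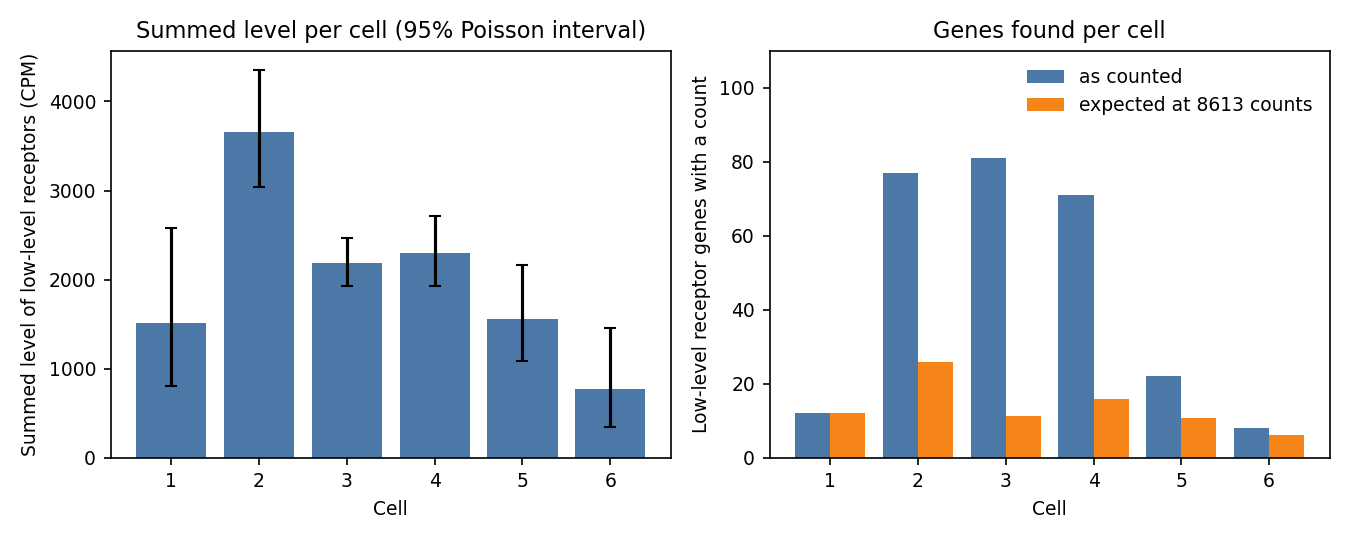
Left, summed level of the low-level receptors in each cell in CPM (bars) with exact 95% Poisson intervals; right, number of these genes with a count in each cell from the full counts (blue) and the number expected at 8613 counts (orange). Cell 2 has the highest summed level, 3655 CPM, and the most genes at equal depth, 25.8.

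Among all receptor counts, the members held 18.1% in cell 1 (exact 95% Clopper-Pearson interval 9.98% to 28.9%), 41.7% in cell 2 (36.1% to 47.5%) and 36.0% in cell 3 (32.5% to 39.5%). They held 40.1% in cell 4 (34.9% to 45.5%), 23.8% in cell 5 (17.2% to 31.5%) and 17.3% in cell 6 (8.23% to 30.3%). For every count of the leading 4 genes there were 0.716 member counts in cell 2 and 0.670 in cell 4, against 0.220 in cell 1 and 0.209 in cell 6. The shares in cells 2 and 4 thus lay above those in cells 1 and 6 without overlap of the intervals. That of cell 3 did so only with the pair above, since without it the share was 23.4% (20.2% to 27.0%), inside the intervals of cells 1 and 6. Members were then limited to those that share no 50-base stretch in the last 1000 bases of any transcript with another gene. The leading 4 were kept whole, and the members left held 106 of the 591 member counts, so a fall was fixed by this choice. Set against the leading 4, their shares were 18.1% in cell 2, 12.6% in cell 4 and 6.10% in cell 3. In cells 1, 5 and 6 they were 1.67% to 3.45%. Shorter transcripts were taken whole, so such stretches can also lie in coding parts away from the 3' end of a gene.

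Most members were counted once. Over all cells 127 members (63.2%) had 1 count and 31 had 2, while 8 members had 10 or more and held 226 of the 591 member counts (38.2%). In no cell did 169 of the 201 members pass 2 counts. The highest 4 members, Olfr1372-ps1, Olfr1383, Olfr482 and Olfr729, held 183 counts (31.0%). Of the members found in a cell, 91.7% had a single count in cell 1 and 87.5% in cell 6, against 64.2% to 75.3% in cells 2 to 5.

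**Figure D2:**
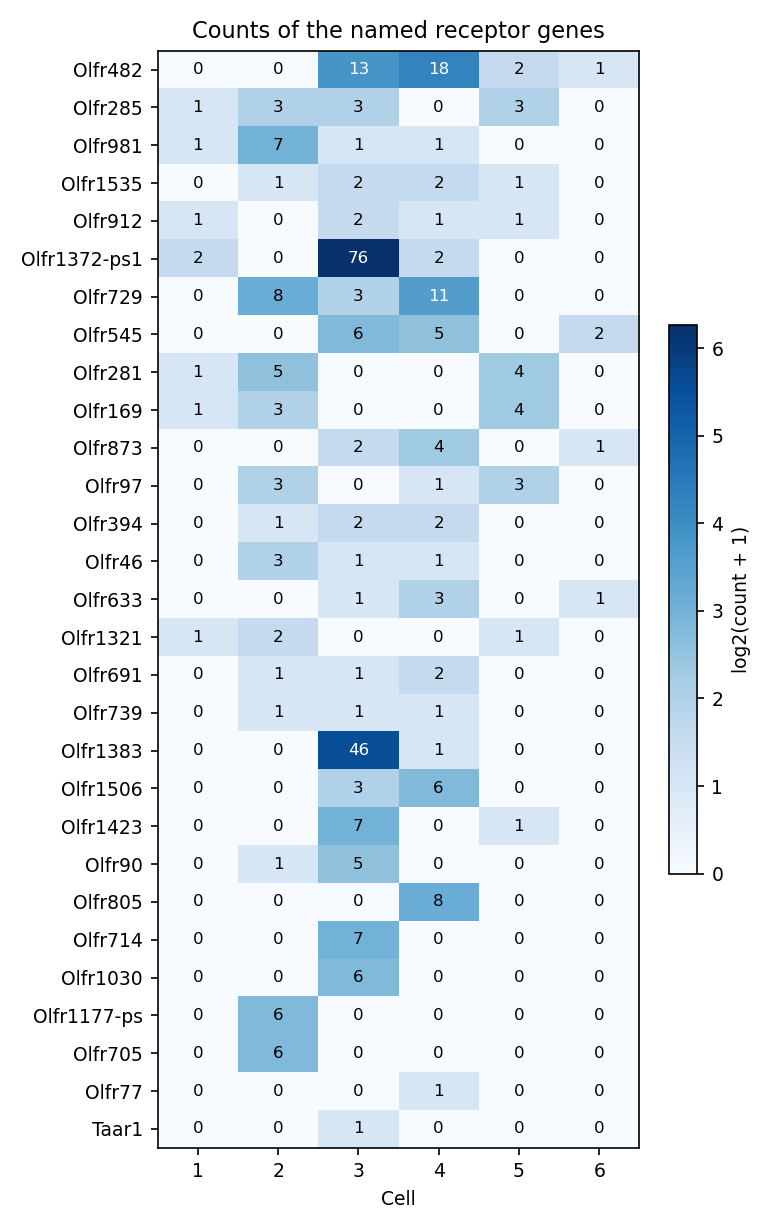
Counts of 29 receptor genes with at least 5 counts in a cell, counts in 3 or more cells or another reason to be named (rows) in the 6 cells (columns), with the colour giving log2(count + 1). The 76 and 46 counts of Olfr1372-ps1 and Olfr1383 in cell 3 stand above all other values, and most other genes stay under 10 counts in every cell.

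Olfr1372-ps1 is named as a pseudogene and is annotated on the minus strand of chromosome 11 (52154722 to 52168159, up to 3 exons). It had 2 counts in cell 1, 76 in cell 3, 2 in cell 4 and none in cells 2, 5 and 6. Its level in cell 3 was 620 CPM (489 to 776), and the 2 counts in the shallow cell 1 stand for 232 CPM with a wide interval (28.1 to 839). Olfr1383, annotated as protein coding on the plus strand of the same chromosome (49519648 to 49527199), had 46 counts in cell 3, 1 in cell 4 and none elsewhere, and its level in cell 3 was 375 CPM (275 to 501). Both genes were thus highest in cell 3, and cell 4 was the other cell in which both had a count.

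The genes of this pair are close in sequence. Their short transcripts, 934 and 940 bases long, matched at 864 of 934 bases when laid side by side without gaps (92.5%), with an identical stretch of 283 bases. The lines below give 90 bases of each from the end of that stretch, with the 5 differing bases in capitals, to show where they part.
Olfr1372-ps1: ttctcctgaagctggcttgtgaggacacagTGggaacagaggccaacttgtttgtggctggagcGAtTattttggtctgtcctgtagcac
Olfr1383: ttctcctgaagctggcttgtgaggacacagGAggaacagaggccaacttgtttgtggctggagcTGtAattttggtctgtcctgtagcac

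Of the windows of 50 bases in the last 1000 transcript bases, 23.8% of those in Olfr1372-ps1 occurred in Olfr1383, and 17.6% of those in Olfr1383 occurred in Olfr1372-ps1. Reads from such windows cannot be told apart. The longest identical stretch, 283 bases, starts at bases 292 and 296 of the short transcripts of Olfr1372-ps1 and Olfr1383. The exons of these genes cover 9812 and 4168 bases in all, most of them outside the short transcripts. Whether the counts of cell 3 came from shared windows was not tested, so how far their division between the genes is uncertain is not known. Of the Olfr1372-ps1 windows 24.9% and of the Olfr1383 windows 20.4% occurred in any other gene.

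Olfr482 was found in the same cells as Ramac, a gene that is no receptor. It lies on the minus strand of chromosome 7 (108092999 to 108097586, 2 exons) and had 13 counts in cell 3, 18 in cell 4, 2 in cell 5, 1 in cell 6 and none in cells 1 and 2. Ramac, which encodes a subunit that activates the enzyme of messenger RNA cap methylation and lies elsewhere on chromosome 7 (81762925 to 81769491), had 13, 11, 3 and 1 counts in cells 3 to 6 and none in cells 1 and 2. Both genes were thus found in the same 4 cells, a comparison made after the values were seen.

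The annotated transcript of Olfr482 contains a copy of Ramac sequence. Its coding part covers bases 43 to 1014 of 2612, and 766 of its 50-base windows, all from base 1126 on and so in the 3' untranslated part, occur in Ramac, with a longest identical stretch of 210 bases. The match ends 199 bases before the end of the Olfr482 transcript and reaches base 1450 of the 1452 of Ramac. An annotated processed pseudogene, Gm44870, lies in the same place on the same strand over 357 bases and had no count in any cell. The 30 bases below stand in the middle of the longest stretch, and are shown because a read over them fits the receptor and Ramac equally.
Olfr482: aaacgccctcctgagtcccctccaattgtt
Ramac: aaacgccctcctgagtcccctccaattgtt

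The level of Olfr482 was 296 CPM in cell 4 (175 to 467), 106 CPM in cell 3 (56.5 to 181), 88.8 CPM in cell 5 (10.8 to 321) and 85.3 CPM in cell 6 (2.16 to 475). Ramac had 181, 106, 133 and 85.3 CPM in cells 4, 3, 5 and 6. How many Olfr482 counts are reads of Ramac was not tested.

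Other members with shared sequence had smaller counts. Olfr1506 had 3 counts in cell 3 and 6 in cell 4, and 89.4% of its windows occur in Gm13769, which had 4 and 1 counts in those cells. Olfr46 had 3, 1 and 1 counts in cells 2, 3 and 4 with 49.4% of its windows shared. Over all members, 83 had 10% or more of their windows in another gene, and these held 331 of the 591 counts (56.0%). At the other end, 42 members shared no window and held 106 counts (17.9%). Sharing was common in the whole family: 41.3% of members and 34.5% of receptor genes without a count shared 10% or more. Any shared window was present in 79.1% of members and 68.2% of the genes without a count. Among the 10 members with the most counts, 5 shared 10% or more. The last of these places was a tie at 8 counts between Olfr1423 (0.163% shared), Olfr169 (16.6%) and Olfr805 (16.8%), and Olfr1423 was taken.

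Sequence shared with the leading receptors was rare. Only 7 members had any window in common with Olfr740 to Olfr743, and they held 17 of the 591 counts. Olfr739, the number just before Olfr740, shared 204 windows with the leading genes and had 1 count each in cells 2, 3 and 4, where the leading receptors were Olfr740 with 174 counts in cell 2 and Olfr741 with 425 and 193 counts in cells 3 and 4. Whether these single counts are reads of a leading receptor was not tested. Olfr738 had 1 count, in cell 1.

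Olfr729 had the most counts among members that share no window with any other gene. It lies on the minus strand of chromosome 14 (50144731 to 50152910, up to 3 exons), in the same cluster as the leading receptors. Cells 2, 3 and 4 had 8, 3 and 11 counts of it, and cells 1, 5 and 6 had none. The levels were 232 CPM (100.2 to 457), 24.5 CPM (5.05 to 71.5) and 181 CPM (90.2 to 323) in cells 2, 3 and 4. Cells 2 and 4 were therefore above cell 3 without overlap of the intervals. A count of 0 allows up to 348 CPM in cell 1, 133 CPM in cell 5 and 256 CPM in cell 6 at 3 counts, the limit used for a count of 0 throughout, so a level like that of cell 2 was not detectable as different in cells 1 and 6.

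Olfr981 was led by cell 2. It had 7 counts there (203 CPM, 81.6 to 418) and 1 each in cells 1, 3 and 4. The interval of cell 3 (0.207 to 45.5 CPM) lay under that of cell 2, while that of cell 4, which reached 91.5 CPM, overlapped it. Olfr981 lies on chromosome 9 (40021464 to 40030377), and 3.95% of its windows occur in other genes.

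The members Olfr281, Olfr169, Olfr1321 and Olfr285 were found in cells 1, 2 and 5 together. Olfr281 (chromosome 15, 98452588 to 98460395) had 1, 5 and 4 counts in cells 1, 2 and 5, or 116, 145 and 178 CPM. Olfr169 (chromosome 16, 19564889 to 19571809) had 1, 3 and 4 counts there, or 116, 87.0 and 178 CPM. Neither had a count in cells 3, 4 and 6, where 0 allows up to 24.5, 49.3 and 256 CPM at 3 counts. The intervals of Olfr281 in cells 2 (47.1 to 338 CPM) and 5 (48.4 to 455 CPM) lay above the limit in cell 3 and reached just under that in cell 4. For Olfr169 the same held in cell 5, while its interval in cell 2 (17.9 to 254 CPM) also took in the limit in cell 3. Cell 6 was too shallow to tell.

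Olfr1321, on chromosome X, had 1, 2 and 1 counts in cells 1, 2 and 5 and none in the other cells. Olfr285, which lies near Olfr281 on chromosome 15 (98309203 to 98317353), had 1, 3, 3 and 3 counts in cells 1, 2, 3 and 5, so cell 3 did not lack it. Olfr97, with 3, 1 and 3 counts in cells 2, 4 and 5, was close to that pattern but had no count in cell 1.

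Olfr545, Olfr633 and Olfr873 were found in cells 3, 4 and 6 and in no other cell. Olfr545 (chromosome 7, 102491466 to 102499573) had 6, 5 and 2 counts, or 49.0, 82.1 and 171 CPM, with intervals that overlapped. Olfr633 had 1, 3 and 1 counts and Olfr873 had 2, 4 and 1. Olfr545 and Olfr633 are class I genes by position. These patterns were picked out after the values were seen, and they were not tested.

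No member was found in more than 4 cells. Of the 201, 154 (76.6%) were found in 1 cell, 29 in 2, 13 in 3 and 5 in 4. The 5 members in 4 cells were Olfr482, Olfr285, Olfr981, Olfr1535 and Olfr912. The 47 members in 2 or more cells are 3.32% of the receptor genes outside the leading 4, while 18.9% of all genes in the table had a count in 2 or more cells. Without cell 3 the 47 became 27, and without cell 4 they became 30. A gene with more counts can be found in more cells, so genes with 2 to 10 counts in all were set side by side. Of 69 such members, 60.9% were in 2 or more cells, against 74.8% of the 7334 other genes with 2 to 10 counts that are not receptors. At 5 to 10 counts it was 77.3% of 22 members against 89.6% of 3285 genes, and at 2 counts 45.2% of 31 against 49.8% of 1879. These shares are a description, and the counts that chose the members enter both.

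Some members with several counts were found in 1 cell alone. Olfr805 had 8 counts in cell 4 (131 CPM), Olfr714 had 7 in cell 3 (57.1 CPM) and Olfr1030 had 6 in cell 3 (49.0 CPM). Olfr705 and Olfr1177-ps had 6 counts each in cell 2 (174 CPM). Olfr1423 had 7 counts in cell 3 and 1 in cell 5, and Olfr90 had 5 in cell 3 and 1 in cell 2. Olfr394 and Olfr691, each in cells 2, 3 and 4, did not pass 2 counts in any of them.

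The largest shares of members found in another cell were those of cells 1, 5 and 6, the shallowest cells with the shortest lists. A share also depends on the depth of the other cell. Cells 3 and 4 shared 26 members, 32.1% of those in cell 3 and 36.6% of those in cell 4. Cells 2 and 5 shared 9, which is 40.9% of the 22 in cell 5 and 11.7% of the 77 in cell 2. Cells 1 and 2 shared 6, 50% of the 12 in cell 1 and 7.79% in cell 2, and cells 1 and 5 shared 5, 41.7% and 22.7%.

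Cells 4 and 5 shared 7 members, 9.86% and 31.8%, and cells 3 and 5 shared 5, 6.17% and 22.7%. Cell 6 shared 4 of its 8 members with cell 3 and the same 4 with cell 4 (50% of its list), 1 with each of cells 2 and 5, and none with cell 1. With 8 to 22 members in cells 1, 5 and 6, a single gene moves these shares by 4.55% to 12.5%. The same shares over all genes were not set beside them, so none of these overlaps can be called particular to receptors.

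**Figure D3:**
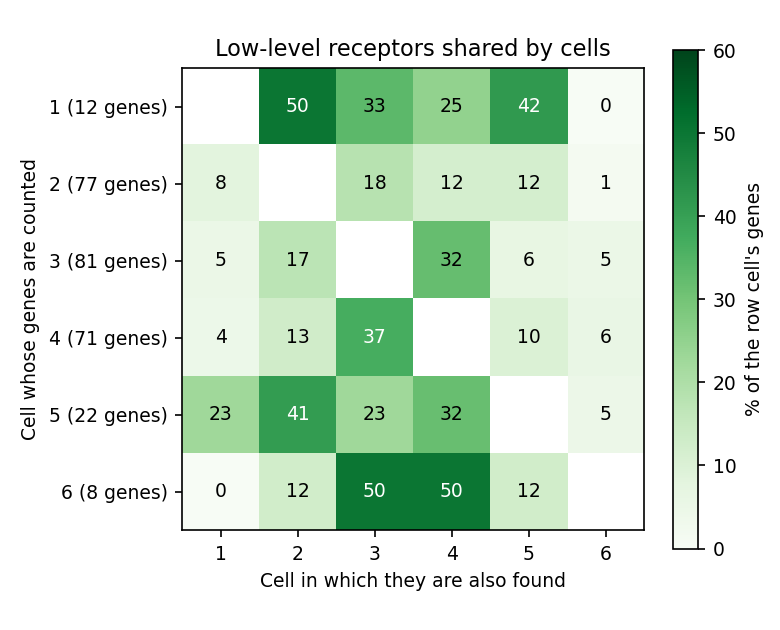
Share of the low-level receptors of one cell (row, with their number) that were also found in another cell (column), in percent. The highest shares are 50% of cell 1 in cell 2 and 50% of cell 6 in cells 3 and 4. No member was shared by cells 1 and 6, and shares over all genes are not shown.

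Markers of other cells in the tissue differed between the cells as well. Gland and secretory genes such as Obp1a and Bpifb9a (9 of the 10 listed were found, with Bpifb4 at 0) summed to 6966, 32745.5, 1004, 657, 5461 and 85.3 CPM in cells 1 to 6. The sum was thus highest in cell 2, the cell with the highest level of low-level receptors. It was lowest in cell 6, the cell with the lowest level of them. It was higher in cells 1, 2 and 5 than in cells 3, 4 and 6. Cell 4, however, had 2299 CPM of low-level receptors against 1554 CPM in cell 5. Obp1a and Obp1b gave 354 and 426 of the 1129 list counts in cell 2. Some listed genes went another way: Sec14l3 had 16 counts in cell 4 and none in cells 1 and 5. Ltf was found in cell 3 alone, and Obp2b had no count in cells 1 and 2. Red blood cell genes (4 of 5, Alas2 at 0) were lowest in cell 6 at 171 CPM and highest in cell 4 at 12610.4 CPM. Sustentacular markers (5 of 7, Cyp1a2 and Sox2 at 0) were at 0 in cells 1 and 6 and highest in cell 2 at 319 CPM.

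Immature neuron genes (9 of 10, Gng8 at 0) summed to 813, 1682, 1183, 3547, 2664 and 2985 CPM in cells 1 to 6. Immature neurons are known to express several receptor genes at low levels before a single gene takes over. The part of RNA from other cells or of immature state in the receptor counts was not tested, and no other cell type was sequenced that would give the background level of these genes.

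Genes of the machinery that chooses and exports receptors were present beside the members. All 13 of that list (Lhx2, Ldb1, Ebf1 to Ebf4, Kdm1a, Cbx5, Lbr, Atf5, Rtp1, Rtp2 and Reep1) were found, 6 in every cell, with a sum of 3367 to 5427 CPM. Cell 3 had the highest sum and cell 1 the lowest, which is not the order of the low-level receptors.

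Vomeronasal receptors, which are known mainly from sensory neurons of the vomeronasal organ, gave a level to compare with. This family was set against the members after its values were seen. Of 330 Vmn1r and Vmn2r genes, 66 had a count (20%), with 159 counts in all and at most 6 in a cell, and 33 of them had 1 count. The odorant receptors outside the leading 4 had 591 counts over 1417 genes, of which 14.2% were found.

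Per gene, odorant receptors had fewer counts than vomeronasal receptors in cell 4, with 140 against 69 counts and a ratio per gene of 0.473 (95% interval 0.352 to 0.640). In cell 3, with 268 against 71 counts, the ratio was 0.879 (0.674 to 1.16), and without Olfr1372-ps1 and Olfr1383 it was 0.480 (0.359 to 0.646). In cell 2 the ratio was 1.83 (1.09 to 3.31), from 126 and 16 counts, and in cell 5 it was 4.08 (1.05 to 34.98), from 35 and 2 counts. Cell 1 had 13 and 1 counts (3.03, 0.455 to 129), and cell 6 had 9 odorant and no vomeronasal receptor counts, so neither could be told from a ratio of 1. Per gene, the low-level odorant receptors therefore stood above the vomeronasal family in cells 2 and 5 and below it in cell 4. In cell 3 they stood below it without that pair and within counting error of it with the pair. The intervals treat counts as independent, and exon lengths of the families were not matched. Neither were pseudogenes: 299 of the 1417 odorant receptor genes are named as such, and 5.02% of those were found.

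**Figure D4:**
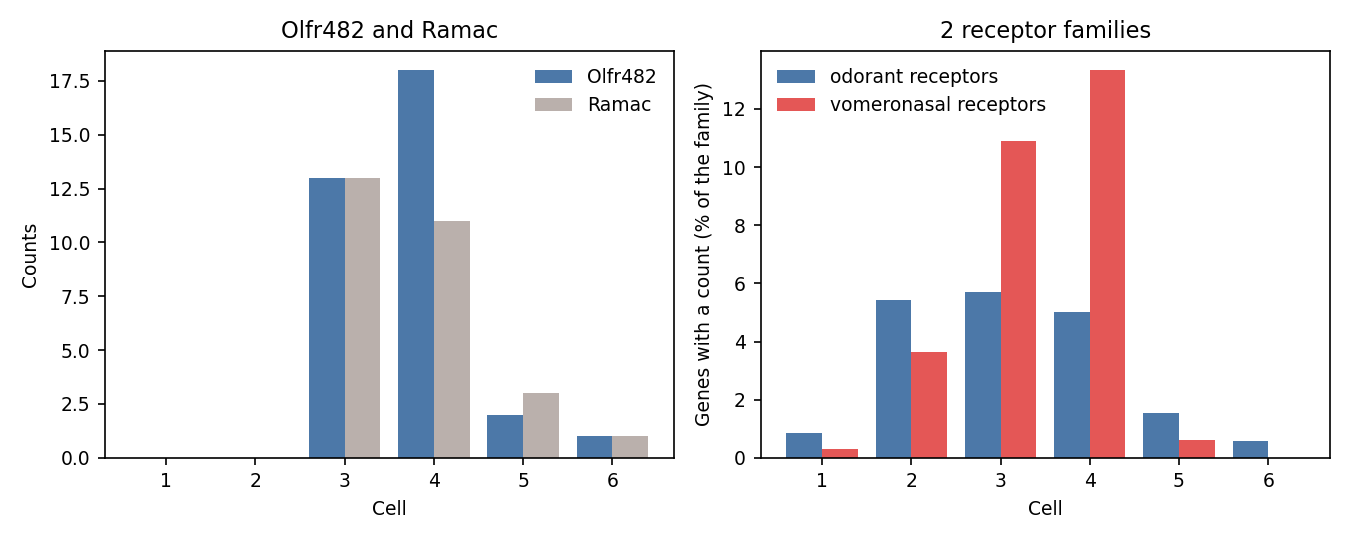
Left, counts of Olfr482 (blue) and Ramac (grey) in the 6 cells; right, percent of the 1417 odorant receptor genes outside the leading 4 (blue) and of the 330 vomeronasal receptor genes (red) with a count in each cell. Olfr482 and Ramac are both at 0 in cells 1 and 2, and in cells 3 and 4 the vomeronasal share, 10.9% and 13.3%, is above the odorant receptor share, 5.72% and 5.01%.

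Whether a receptor gene was found went with how much of it is annotated. The members had a median exon length of 3821 bases (quartiles 2751 and 4996), and the 1216 receptor genes without a count 2263 bases (1019 and 3599). A 3' untranslated part, from which a 3' end library draws its reads, was annotated for 194 of 201 members (96.5%) and for 983 of the others (80.8%). Of the receptor genes with such a part, 16.5% were found (95% exact interval 14.4% to 18.7%), and of those without, 2.92% (1.18% to 5.92%).

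By exon length, the share found was 1% up to 1000 bases, 7.81% from 1000 to 2000, 12.1% from 2000 to 3000, 21.6% from 3000 to 4000, 26.6% from 4000 to 6000 and 33.3% of the 66 genes over 6000 bases. Counts of different members are therefore not levels that can be ranked against each other.

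**Figure D5:**
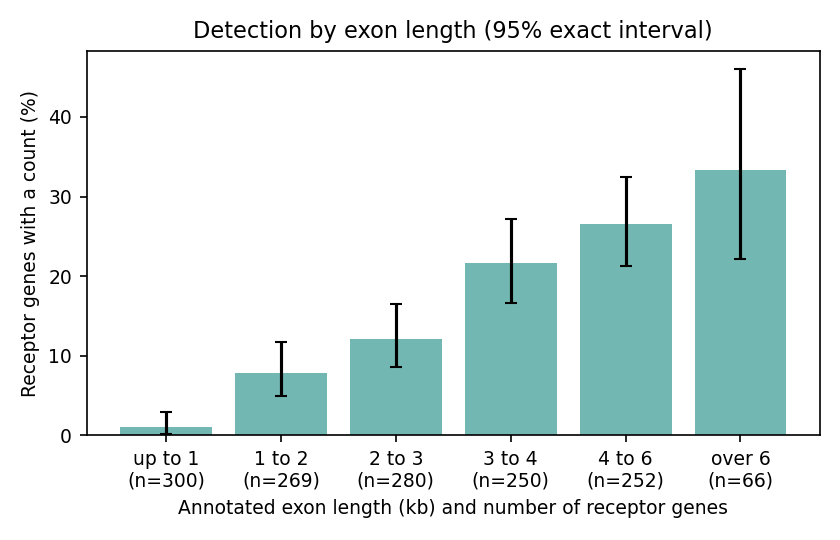
Percent of receptor genes outside the leading 4 with a count in any cell, by annotated exon length in kilobases, with exact 95% intervals and the number of genes per bin. The share goes from 1% in the shortest to 33.3% in the longest genes.

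Genes named as pseudogenes made up a smaller part of the members than of all receptor genes, but among long genes the shares found were nearly equal. By name, 15 members (7.46%) are pseudogenes, while 299 of the 1417 receptor genes (21.1%) are, so 5.02% of pseudogenes and 16.6% of the others were found. The pseudogenes have a median exon length of 923 bases against 2924 for the others, and 22.4% of them against 99.3% have an annotated 3' untranslated part. Among genes with over 2000 bases of exon, 10 of 48 pseudogenes (20.8%) and 167 of 800 others (20.9%) were found. Up to 2000 bases it was 5 of 251 (1.99%) and 19 of 318 (5.97%).

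Of the 15 pseudogene members, 10 had 1 count and 12 were found in 1 cell. Olfr1372-ps1 held 80 of their 104 counts, and Olfr1177-ps had 6, all in cell 2. The names are an uneven guide, since 8 of the 15, Olfr1177-ps among them, are annotated as protein coding.

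Neighbouring symbol numbers, which mostly mark neighbours in the genome, did not set members apart from other receptor genes. A total of 51 members (25.4%) had a member at the next or previous number. Of the 375 neighbours by number of members, 14.9% were members, and of the 2253 neighbours of receptor genes without a count, 14.2% were. A gene counts here once for each gene that it adjoins. By position, counted in the same way, 12.1% of the nearest receptor genes of members were members, against 14.5% of those of the others.

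Of the 28 pairs of members with neighbouring numbers, 24 lie on the same chromosome and 14 had counts in the same cell. The share over pairs of members that are not neighbours was not computed. Counts in the same cell can therefore not be called particular to neighbours. The runs of 3 on a single chromosome were Olfr97 to Olfr99, Olfr106-ps to Olfr108, Olfr713 to Olfr715b and Olfr1440 to Olfr1442, with spans of 52498 to 289999 bases. Olfr713, Olfr714 and Olfr715b had all their 9 counts in cell 3. Olfr97, Olfr98 and Olfr99 together had 3 counts in each of cells 2, 4 and 5. The fifth run, Olfr986 to Olfr988, is spread over chromosomes 2 and 9 and shows that numbers are no sure sign of position.

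Members came from 37 of the 64 groups of receptor genes that lie less than 1 Mb apart, and from 18 of 19 chromosomes that hold receptor genes. Each of the 17 groups of 20 or more receptor genes had a member, with 7.14% to 32% of their genes found and a median of 15%. The largest, on chromosome 2 (85330779 to 90403897), had 39 of 286 found (13.6%). The group of the leading receptors on chromosome 14 (49894258 to 52495749) had 7 of 33 found (21.2%) and 31 counts, of which Olfr729 gave 22.

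The class I cluster on chromosome 7 (102476579 to 105369355) had 18 of 156 genes found (11.5%), against 183 of 1261 (14.5%) elsewhere. Class I members had 7, 14, 16, 2 and 3 counts in cells 2 to 6 and none in cell 1. In cells 3 and 4 the share of class I genes found, 5.77% and 5.13%, was near that of the other receptors, 5.71% and 4.996%, and in cell 2 it was 3.21% against 5.71%. With few genes found, it was 0 against 0.952% in cell 1, 1.28% against 1.59% in cell 5 and 1.28% against 0.476% in cell 6. The Taar genes had 1 member, Taar1, with 1 count in cell 3 (8.16 CPM).

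Overlap with other genes was uncommon. Exons of 11 members (5.47%) overlap an exon of a gene that is no receptor, as do those of 40 of all 1417 (2.82%). For 10 of the 11 the other gene had no count in any cell. The exception was Olfr77, with 1 count in cell 4, which overlaps Gm7808 on the opposite strand over 387 bases, a processed pseudogene with 1, 3, 22, 19, 2 and 2 counts in cells 1 to 6.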

How the data were processed

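The values are raw counts per gene symbol as deposited by the authors, 1 column per cell. Their processing, in the submitters' processing notes, used CASAVA, HTSeq, mm10 and Bowtie2 2.3.4. Per the labels, the molecular identifiers were moved to the names of read 2, and read 2 alone was aligned. The annotation, strand setting, treatment of reads with several alignments and collapsing of molecular identifiers are not given in any source used here, so a count may stand for a read or a molecule and strand partners cannot be told apart. Each library is a picked cell, so no doublet caller was run. CPM used the total of all genes in a cell, with exact 95% Poisson intervals, Clopper-Pearson intervals for shares and conditional binomial intervals for ratios, in scipy 1.17.1. Ratio intervals and depth expectations (hypergeometric) were tested on simulated data with independent counts, so copies of a molecule were not covered. A count of 0 is read as at most 3 counts, a smaller limit than the upper end of the Poisson interval.

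Gene positions, types, exons and transcripts are from GENCODE M21 (GRCm38, which mm10 names), where all 55341 symbols were found. For windows, every 50-base piece of the last 1000 bases of each receptor transcript was looked up in the transcripts of all other genes on both strands. Transcripts shorter than 1000 bases were taken whole, so windows also lie in coding sequence. Named genes are members with at least 5 counts in a cell, with counts in at least 3 cells, the highest in each cell, Taar members and members overlapping a counted gene, 29 in all. Runs of 3 numbers are named as runs and do not add to the 29. Others named, among them Olfr738 and the vomeronasal receptors, were chosen after their values were seen. A further marker list is not reported here. The members, lists and rules were chosen with earlier results of these data known. Promoter motifs were not searched: the RefSeq starts of the 156 members listed lay a median of 3341 bases from the annotated gene start. The alternatives were other count minimums, pseudogenes or genes with shared windows left out, equal depth, a total without mitochondrial genes, the pair Olfr1372-ps1 and Olfr1383 left out, other definitions of neighbours, pseudogenes and clusters, and each cell left out.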

Additional observations from a re-analysis of the deposited data

Results flagged for a closer look

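A total of 33 values were looked at for a cell far from the other 5, by the gap to the nearest cell over the whole range, and 12 passed Dixon's 95% limit for 6 values. The limit passes about 1 in 20 groups by chance only where values were not chosen by their height. Of the 29 named genes, 15 entered for at least 5 counts in a cell, so no chance rate can be given. Among the 12, 7 are genes counted in 1 cell, which pass by construction. In cell 3 the values were 620 CPM for Olfr1372-ps1, 375 CPM for Olfr1383, 57.1 CPM for Olfr714, 49.0 CPM for Olfr1030 and 8.16 CPM for Taar1. In cell 4 they were 296 CPM for Olfr482, 131 CPM for Olfr805, 98.5 CPM for Olfr1506 and 16.4 CPM for Olfr77. In cell 2 they were 174 CPM each for Olfr705 and Olfr1177-ps and 87.0 CPM for Olfr46. The summed level, the share of receptor counts and the number of members found did not pass the limit in any cell.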

How the results depend on the processing

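No paired analysis was possible because all cells form 1 group. Requiring 2 or 3 counts in a cell left 59 or 32 members, and 2 counts left 15 in 2 or more cells. Without each cell in turn, 148 to 198 members were found and 27 to 46 were in 2 or more cells, with 27 without cell 3 and 30 without cell 4. At the total of the shallowest cell, cells 2 to 5 are expected to hold 25.8, 11.4, 15.9 and 10.7 members. Members with any shared window were left out while the leading 4 were kept. The receptor shares were then 1.67%, 18.1%, 6.10%, 12.6%, 3.45% and 2.27% in cells 1 to 6. Members sharing 10% or more were instead left out in the same way, a choice made after seeing the data. That kept 118 members, 22 in 2 or more cells. The shares in cells 2 to 5 were 32.6%, 15.4%, 22.3% and 13.2%. Without pseudogene names the share in cell 3 was 27.8%. With Olfr1372-ps1 and Olfr1383 left out, also chosen after seeing the data, cell 3 had a share of 23.4% and a summed level of 1191 CPM. With at least 2 counts over all cells, 11 members had a neighbouring number and 5 were pseudogenes, and by annotation 8 members are pseudogenes. The other 40 alternative values stayed within 1.5 times the main count or within its counting interval. Depth limits cells 1 and 6 most, where 3 counts stand for 348 and 256 CPM.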

Other observations

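Families known from other tissues, chosen after the data were seen, had few counts, and their difference from the receptors was not tested. Bitter taste receptors (Tas2r) had 1 count over 40 genes, in cell 2. Beta-defensins (Defb) had 5 counts over 43 genes, 2 in cell 3 and 3 in cell 4, where they stand for 1.15 CPM per gene beside 1.62 CPM per gene for the odorant receptors. The hair proteins of the Krtap family had none over 58 genes. Exon lengths of these families were not compared with those of the receptors.

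The group of receptor genes with the largest share found among the 17 large ones lies near the end of chromosome 7 (140159999 to 140722112), with 8 of 25 genes (32%) and 14 counts, 8 of them in cell 2 and none in cells 5 and 6. Its median exon length was 3417 bases.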
